A study of Mus musculus with 25 samples.

Results

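Socs1, Rmi2 and Clec16a lie side by side on mouse chromosome 16, and their contacts with other active chromatin were followed in CD8+ T cells with and without IL-2 and with and without pieces of the Il2ra gene region. The contacts were measured by H3K27ac HiChIP, which ligates neighbouring chromatin fragments, pulls down the joined fragments with an antibody against the active histone mark H3K27ac, and counts read pairs between 1 kb bins. The members were all listed pairs of bins with at least 1 bin overlapping the annotated span of Socs1 (chr16:10783808-10785536, GRCm38), Rmi2 (chr16:10835059-10843235) or Clec16a (chr16:10545309-10744878), each widened by 5 kb on both sides and called its window. They numbered 910 of the 121571 pairs listed in any library. The Clec16a window held 528 of them, the Socs1 window 447 and the Rmi2 window 193, and a pair that joined 2 windows was counted in both. The locus was chosen from its higher contacts with IL-2 in these same libraries, so every IL-2 value of these genes below, and every difference between genotypes in that IL-2 change, is a description.

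The CD8+ T cells came from spleens of C57BL/6J mice and gave 6 libraries, 1 for each of 3 genotypes with and without IL-2. The genotypes were wild type (WT), a mutant labelled Intron and a mutant labelled Upstream, called the intron deletion and the upstream deletion here because the series describes CRISPR deletions in the super-enhancer of Il2ra, the gene of the IL-2 receptor alpha chain. Before the control or IL-2 treatment, every culture had 2 days of stimulation and a rest of 4 h, and the protocol names both IL-2 and anti-CD3 with anti-CD28 for the stimulation. The position of the deletions, the number of mice or lines behind each library, and the dose and time of the last IL-2 treatment were not stated in the labels used here. With 1 library per genotype and treatment, a p-value rests on how far the IL-2 change differs between genotypes, not on repeated libraries.

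SOCS1 is a feedback inhibitor that is switched on by cytokine signals and then blocks the JAK kinases of cytokine receptors. In T cells IL-2 signals through its receptor to JAK1 and JAK3, which activate STAT5, and STAT5 binds enhancers and promoters of its target genes. RMI2 is a subunit of the complex of the Bloom helicase with topoisomerase III alpha, which takes apart joined DNA molecules during repair. CLEC16A is a membrane-associated protein of endosomes and mitophagy that works with the ubiquitin ligase RNF41, and its gene lies in a region tied to autoimmune disease.

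The libraries listed between 38879 and 94922 pairs and between 1314137 and 3596995 contacts, and the control library of the intron deletion was the shallowest. A pair appeared in a table only with at least 20 contacts, and a pair that is not listed has no measured value here. The Il2ra window, summed over its 5 pairs listed in all libraries, held 334 scaled contacts in the WT control and 462 with IL-2, 188 and 198 in intron-deleted cells, and 290 and 323 in upstream-deleted cells. It was lower in the intron deletion than in WT by log2 −1.05 (SE 0.11, edgeR adjusted p = 0.000109), and for the upstream deletion the value was −0.37 (SE 0.10, adjusted p = 0.178). Of 10 markers of CD8 T cells 9 had a listed pair in at least 1 library, Cd8a and Cd8b1 among them. Of the markers of other cells, 2 of 5 of B cells had one (summed per library to between 2617 and 3929 scaled contacts), 3 of 6 of myeloid cells (1295 to 2187), 4 of 4 of CD4 or regulatory T cells (180 to 354), 3 of 4 of NK cells (93.4 to 315) and 1 of 4 of erythroid cells (0 to 60.3). Ms4a1 and Pax5 of B cells, Lyz2, Csf1r and Itgam of myeloid cells, Ncr1 of NK cells and Hba-a1 and Hbb-bs of erythroid cells were listed in no library.

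The listed bins of the locus were spread unevenly over the 3 windows and the stretches between them. The number of bins that anchored a listed pair in at least 1 library was 12 of 13 in the Socs1 window, 14 of 19 in the Rmi2 window and 74 of 210 in the long Clec16a window. The bin of the annotated lower end of Clec16a, its start, was listed in no library, and the listed bins of the gene lay inside its body. Between Clec16a and Socs1 lay a dense block of listed bins with no member gene. Of the 107 locus pairs that were listed in all 6 libraries, 45 joined that block to the Socs1 window. The others were 13 pairs between Socs1 and Rmi2, 11 between Rmi2 and the stretch that separates it from Socs1, 8 inside Rmi2, 8 inside Clec16a, 7 inside Socs1, 6 between Clec16a and Socs1 and 9 of other kinds.

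**Figure D1:**
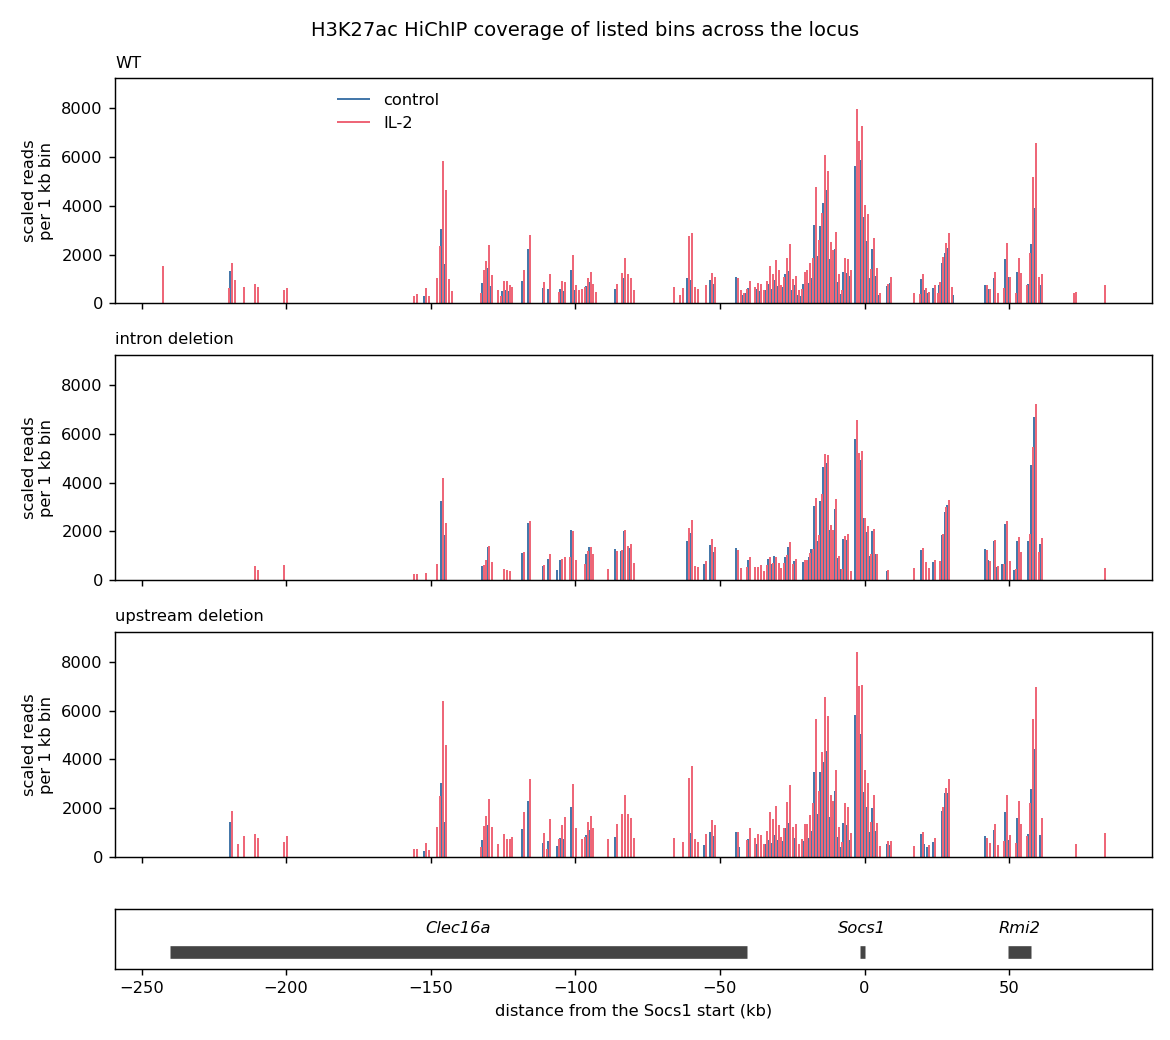
Coverage of every listed 1 kb bin of the locus, in reads scaled to the mean effective library size (vertical axis), against the distance from the Socs1 start in kb (horizontal axis), with 1 panel per genotype, control in blue and IL-2 in red, and the spans of the 3 genes below. The IL-2 bars stand far above the control bars at the inner Clec16a peaks and past Rmi2 in WT and the upstream deletion, while in the intron deletion the control bars past Rmi2 reach 6683 reads and the IL-2 bars 7247.

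More of the locus was listed with IL-2 in every genotype. WT listed 285 locus pairs in the control and 792 with IL-2, the intron deletion 176 and 468, and the upstream deletion 210 and 553. Locus contacts made up 0.351% of all listed contacts in the WT control (95% Wilson interval 0.344 to 0.358) and 0.763% with IL-2 (0.754 to 0.772). In the intron deletion they made up 0.435% (0.423 to 0.446) and 0.600% (0.591 to 0.610), and in the upstream deletion 0.330% (0.322 to 0.338) and 0.811% (0.799 to 0.823). The intron deletion thus had the highest share of the 3 controls and the lowest of the 3 IL-2 libraries. The 2 upstream deletion libraries had nearly the same depth, with 1965388 and 2203507 listed contacts. Intervals cover counting error only.

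Pairs listed with IL-2 alone involved all 3 genes. In all 3 IL-2 libraries and in no control library, 98 of the 910 locus pairs were listed (10.8%), against 2030 of all 121571 pairs (1.67%). By window these were 75 pairs of Clec16a, 37 of Socs1 and 24 of Rmi2. The reverse pattern, all controls and no IL-2 library, was met by 0 locus pairs and 55 pairs in all. Contacts between Clec16a and Rmi2, 118 to 278 kb apart, were listed in no control library, and IL-2 libraries listed 19 of these pairs in WT, 9 in intron-deleted cells and 8 in upstream-deleted cells. The pair between chr16:10639001-10640000 inside Clec16a and chr16:10844001-10845000 just past Rmi2, 205 kb apart, had 53 contacts with IL-2 in WT, 48 in intron-deleted cells and 30 in upstream-deleted cells, and was listed in no control.

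Summed over the pairs that all libraries listed, each gene window was higher with IL-2 in each genotype. The Socs1 window, 76 pairs, held 3298 scaled contacts in the WT control and 4307 with IL-2, 3615 and 4157 in intron-deleted cells, and 3433 and 4538 in upstream-deleted cells. The IL-2 libraries of all genotypes were above all controls. The Rmi2 window, 34 pairs, held 1054 and 1619 in WT, 1858 and 2169 in intron-deleted cells, and 1266 and 1846 in upstream-deleted cells. There the intron deletion control was above the IL-2 libraries of WT and the upstream deletion. The Clec16a window, 16 pairs, held 443 and 665 in WT, 557 and 568 in intron-deleted cells, and 477 and 759 in upstream-deleted cells. In WT and the upstream deletion the IL-2 library was above every control, and in the intron deletion the 2 treatments were nearly level. These sums cover only pairs that the shallowest library, the intron deletion control, also listed. With unlisted pairs as 0, the Clec16a ratio of IL-2 to control was 5.20 in WT, 4.13 in intron-deleted cells and 5.96 in upstream-deleted cells. With unlisted pairs set to 19 contacts it was 1.24, 0.951 and 1.32.

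**Figure D2:**
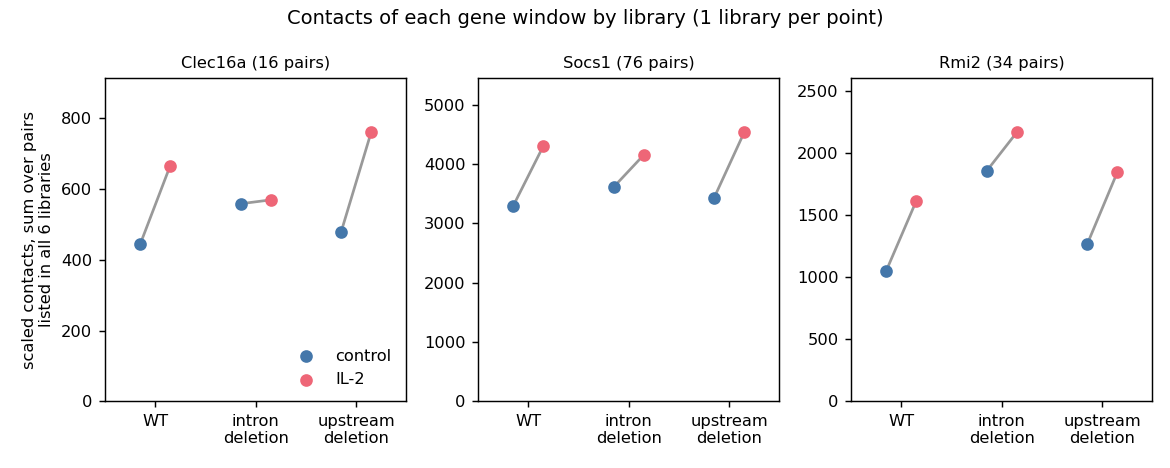
Contacts of the Clec16a, Socs1 and Rmi2 windows, as the sum of scaled contacts over the pairs listed in all 6 libraries (vertical axis from 0), for each genotype (horizontal axis), with 1 point per library, control in blue and IL-2 in red, joined by a line within a genotype. The Rmi2 points of the intron deletion, 1858 and 2169, lie above those of WT, 1054 and 1619, and the Clec16a line of the intron deletion is nearly flat.

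The fitted IL-2 change over the 3 genotypes was log2 0.44 (SE 0.10) for Clec16a, 0.46 (SE 0.07) for Rmi2 and 0.33 (SE 0.06) for Socs1. The median over the 107 locus pairs was 0.35, beside 0.00 for all 28033 pairs, and 100 of the 107 were above 0. These values depend on the scaling: with the total of listed contacts as library size, which moves the median of all pairs to −0.29, the locus median was 0.063.

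Rmi2 was the member whose contacts differed most between genotypes. Its window was higher in the intron deletion than in WT by log2 0.61 (SE 0.09, edgeR adjusted p = 0.0008, 2 libraries each), a fold of 1.53, and it was the 1 member called of 3, where 9.45% of all 3522 gene windows were called higher. The same comparison gave 0.04 (SE 0.07, adjusted p = 0.723) for Socs1 and 0.03 (SE 0.12, adjusted p = 0.901) for Clec16a, against 8.35% of windows called lower. Within the controls the Rmi2 window was 1.73 times the WT level (95% counting interval 1.60 to 1.88), and with IL-2 1.29 times (1.22 to 1.38). These ratios cover only pairs that the shallowest library, the intron deletion control, also listed. Over all pairs listed in both compared libraries they were 1.74 (1.61 to 1.87) and 1.19 (1.14 to 1.24). With unlisted pairs set to 19 contacts they were 1.65 and 1.14, and with unlisted as 0 they were 1.87 and 1.05. In bulk libraries more cells with a contact and more contacts per cell cannot be told apart. With the total of listed contacts as library size, which moved the median of all windows to 0.35, the changes were 0.997 for Rmi2 (adjusted p = 2.18e-05), 0.42 for Socs1 (adjusted p = 0.0879) and 0.43 for Clec16a (adjusted p = 0.131). Leaving out any 1 library left the Rmi2 change between 0.44 and 0.80, with adjusted p from 2.14e-06 to 0.022. When pairs outside the common set were counted with unlisted values as 0, it was 1.03 with adjusted p = 0.137.

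The higher contacts of Rmi2 were spread over pairs with a few shared ends. Of the 34 Rmi2 pairs 33 were above 0 in the intron deletion against WT, with a median of log2 0.55, beside −0.01 for all 28033 pairs. Of the 107 locus pairs 14 were called higher, where 6.27% of all pairs were, and all 14 had an end in the Rmi2 window. All but 2 of them ended in the bins at and past the upper end of Rmi2, chr16:10843001-10844000 and chr16:10844001-10845000. The other 2 joined chr16:10830001-10831000, below the gene, to chr16:10813001-10814000 and chr16:10814001-10815000, which lie between Socs1 and Rmi2 with no annotated gene. Further partners were a bin inside Rmi2 (chr16:10838001-10839000), the bin chr16:10834001-10835000 of the RNA gene Gm17913, and bins at and on either side of Socs1.

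The pair with the largest change joined the stretch between the genes to the bin past Rmi2, chr16:10813001-10814000 with chr16:10844001-10845000, 31 kb apart. It had 24.8 scaled contacts in the WT control and 41.9 with IL-2, 77.8 and 73.4 in intron-deleted cells, and 37.1 and 46.1 in upstream-deleted cells. Both intron deletion libraries were above the other 4, and the change was log2 1.15 (SE 0.22, edgeR adjusted p = 2.93e-05). Inside Rmi2, chr16:10838001-10839000 with chr16:10843001-10844000 had 38.1 and 79.7 scaled contacts in WT, 108 and 138 in intron-deleted cells, and 68.8 and 121 in upstream-deleted cells. Here the groups overlapped, since the upstream deletion with IL-2 was above the intron deletion control, and the change against WT was 1.05 (SE 0.18, adjusted p = 6.38e-07). From the Socs1 gene itself, chr16:10783001-10784000 with the bin past Rmi2, 61 kb apart, had 30.5 and 53.4 in WT, 64.8 and 77.9 in intron-deleted cells, and 43.7 and 73.3 in upstream-deleted cells (change 0.75, SE 0.21, adjusted p = 0.00833). It was the only 1 of the 13 Socs1 to Rmi2 pairs that was called, and the median of the 13 was 0.41.

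**Figure D3:**
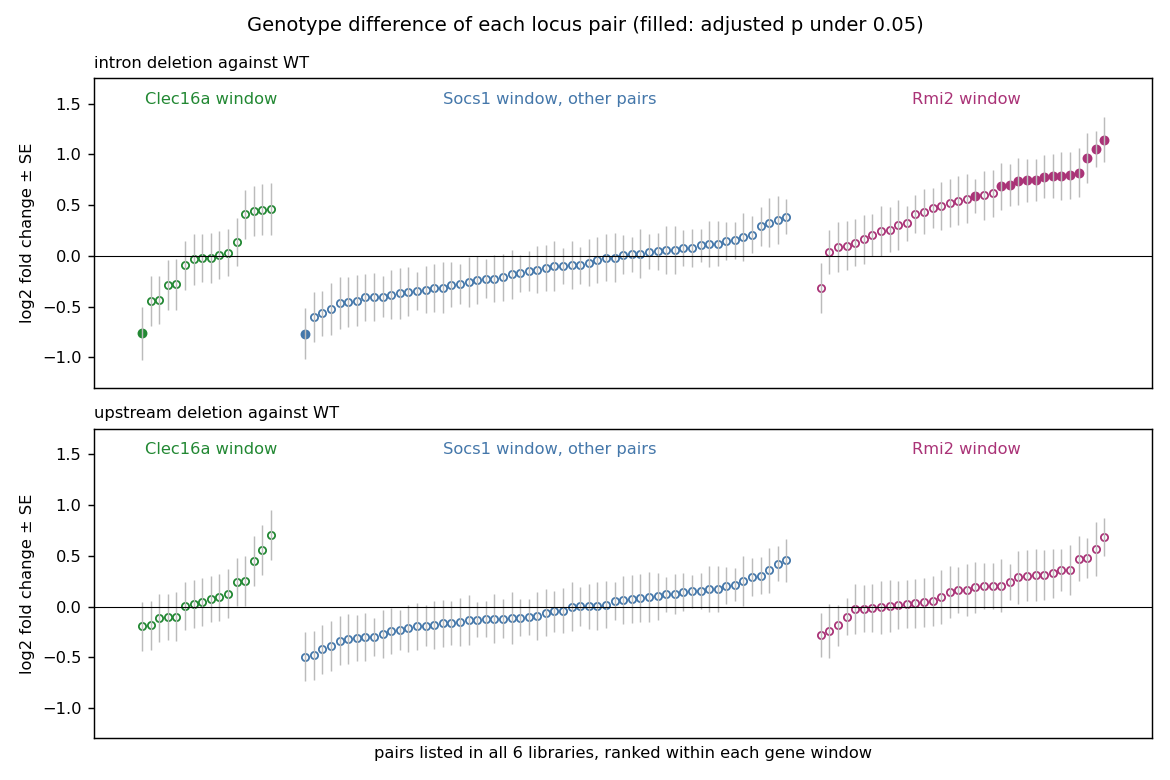
Log2 fold change against WT of each of the 107 locus pairs listed in all libraries (vertical axis, bars ± SE), ranked within the Clec16a, Rmi2 and remaining Socs1 pairs (horizontal axis), for the intron deletion (top) and the upstream deletion (bottom), with filled points at an edgeR adjusted p under 0.05. In the top panel 14 Rmi2 pairs are filled above 0 and 2 other pairs below 0, and in the bottom panel none is filled.

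Calls of single pairs depended on the tool and on the libraries. DESeq2 called 0 of the 107 locus pairs (11 at an unadjusted p under 0.05), and it called 0.282% of all pairs. Fewer locus pairs were called without the WT control, the WT IL-2 library or either intron deletion library. The share of all pairs called in those fits was not counted. With the total of listed contacts as library size, which moved the median of all pairs by over 0.1 to 0.37, 32 were called higher and 0 lower, in place of 14 and 2. For this scaling too the share of all pairs called was not counted.

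Outside the Rmi2 window 2 locus pairs were called lower, where 5.03% of all pairs were called lower. The bin of the Socs1 start with chr16:10778001-10779000 beyond its other end, 7 kb apart, had 32.4 scaled contacts in the WT control and 50.1 with IL-2, 32.4 and 19.3 in intron-deleted cells, and 32.7 and 34.6 in upstream-deleted cells. The intron deletion and WT controls were level and the IL-2 library of the intron deletion was the lowest of the 6, with a change of log2 −0.77 (SE 0.25, edgeR adjusted p = 0.0271). Inside Clec16a, chr16:10639001-10640000 with chr16:10653001-10654000 had 33.3 and 53.4 in WT, 27.2 and 25.7 in intron-deleted cells, and 31.6 and 59.7 in upstream-deleted cells (change −0.76, SE 0.26, adjusted p = 0.0367). Both intron deletion libraries were below the other 4.

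The coverage of a single bin counts its reads to all partners. Of the 36 locus bins listed in all libraries 7 were called higher and 4 lower in the intron deletion than in WT, where 21.7% of all 18580 bins were called higher and 24.5% lower, so that the share of the locus was below the background in each direction. The count of called locus bins changed when single libraries were left out, and the share of all bins called in those fits was not counted.

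At Socs1 3 of 10 tested bins were called, all lower, where 24.5% of all bins were called lower. These were a bin in the gene, the bin of its start and the next bin upstream. The start bin, chr16:10785001-10786000, had 3555 scaled reads in the WT control and 4027 with IL-2, 2551 and 2559 in intron-deleted cells, and 2656 and 3551 in upstream-deleted cells. Both intron deletion libraries were below the other 4 (change against WT log2 −0.57, SE 0.10, edgeR adjusted p = 0.00569). The next bin upstream of the gene, chr16:10786001-10787000, had 2561 and 3649 in WT, 1995 and 2223 in intron-deleted cells, and 2034 and 3016 in upstream-deleted cells, and fell by 0.54 (SE 0.11, adjusted p = 0.0087). In the gene body, chr16:10784001-10785000 had 5875 and 7287 in WT, 4941 and 5306 in intron-deleted cells, and 5043 and 7038 in upstream-deleted cells, and fell by 0.35 (SE 0.09, adjusted p = 0.0197). The bin with the highest mean coverage of the Socs1 window, chr16:10782001-10783000 past the gene's other end, had 5656 and 7972 in WT, 5794 and 6583 in intron-deleted cells, and 5829 and 8389 in upstream-deleted cells. Its change of −0.12 (SE 0.09, adjusted p = 0.301) did not pass.

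The Socs1 start region carries the promoter sequence, which is shown as background. The 3 of 10 Socs1 bins called lower were near the 24.5% of all bins, so nothing particular to Socs1 is read from them. The 250 bases before the start come from RefSeq (GRCm38.p6), chr16:10785537-10785786 on the minus strand, printed 5′ to 3′ with capitals for the GC box GGGCGG and for GAAA repeats in which 2 GAAA stand 2 bases apart.
Socs1 promoter: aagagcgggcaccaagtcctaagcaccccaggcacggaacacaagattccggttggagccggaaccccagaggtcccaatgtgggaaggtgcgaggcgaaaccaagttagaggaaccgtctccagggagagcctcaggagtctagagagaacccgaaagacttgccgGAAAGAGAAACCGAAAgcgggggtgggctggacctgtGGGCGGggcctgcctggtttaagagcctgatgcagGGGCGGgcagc
The stretch holds 2 GC boxes and 2 overlapping GAAA pairs on the strand of the gene. Searched on both strands, 32.7% of the 32851 promoters of the same length hold the GC box, which binds SP factors, and 2.98% hold a GAAA pair of this spacing, as found in interferon response elements. The STAT core TTCNNNGAA is in 7.02% of them and not in this stretch. A match describes the letters and not a bound site.

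In the Rmi2 window 3 of 8 tested bins were called, all higher in the intron deletion, where 21.7% of all bins were called higher. The bin just past the gene, chr16:10844001-10845000, had 3932 scaled reads in the WT control and 6574 with IL-2, 6683 and 7247 in intron-deleted cells, and 4437 and 6967 in upstream-deleted cells. The intron deletion control was thus near the level of the IL-2 libraries of the other genotypes (change against WT log2 0.46, SE 0.14, edgeR adjusted p = 0.0411). The bin below the gene, chr16:10830001-10831000, had 1051 and 1281 in WT, 1619 and 1641 in intron-deleted cells, and 1127 and 1339 in upstream-deleted cells, and rose by 0.49 (SE 0.09, adjusted p = 0.00614). The bin chr16:10846001-10847000 rose by 0.72 (SE 0.14, adjusted p = 0.00779). The neighbouring bin inside the gene, chr16:10843001-10844000, had 2451 and 5183 in WT, 4724 and 5456 in intron-deleted cells, and 2774 and 5674 in upstream-deleted cells, with a change of 0.52 (SE 0.20, adjusted p = 0.0801). The bin of the annotated lower end of Rmi2, chr16:10835001-10836000, had 1072 scaled reads in the WT control and 1074 with IL-2, 782 with IL-2 in intron-deleted cells, and 680 and 901 in upstream-deleted cells. It was not listed in the intron deletion control and so was not tested, and its IL-2 value there was below both WT values.

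Clec16a bins went both ways. In the body of the gene chr16:10653001-10654000, which also overlaps the RNA gene Gm52264, fell by log2 0.85 (SE 0.17, edgeR adjusted p = 0.00919), and chr16:10699001-10700000 rose by 0.85 (SE 0.18, adjusted p = 0.0114). The latter had 584 scaled reads in the WT control and 809 with IL-2, 1274 and 1193 in intron-deleted cells, and 828 and 1356 in upstream-deleted cells. Near the upper end of the gene chr16:10732001-10733000 rose by 0.52 (SE 0.10, adjusted p = 0.00661), chr16:10733001-10734000 by 0.41 (SE 0.10, adjusted p = 0.0201) and chr16:10741001-10742000 by 0.25 (SE 0.07, adjusted p = 0.0307). For the window as a whole the direction depended on the treatment: without the intron deletion control its change against WT was −0.24 (adjusted p = 0.020), and without the intron deletion IL-2 library it was 0.36 (adjusted p = 0.0123).

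The edgeR fit of all 6 libraries called no locus feature in the upstream deletion against WT, a comparison that shares the WT libraries with that of the intron deletion. It called 0 of 107 pairs, 0 of 3 gene windows and 0 of 36 bins, where 0.0785% of all pairs, 0.17% of windows and 1.69% of bins were called. At an unadjusted p under 0.05 there were 10 locus pairs, beside 2294 of all 28033, 1 window, beside 441 of 3522, and 9 bins, beside 4518 of 18580. DESeq2 called 0 locus pairs, 0 windows and 2 bins, beside 2 of all 28033 pairs, 2 of 3522 windows and 509 of 18580 bins. The nearest was the Rmi2 window, with log2 0.22 (SE 0.09, edgeR adjusted p = 0.325). That value was 0.22 with edgeR adjusted p = 0.00783 when only WT and the upstream deletion were fitted. The 2-genotype fit called 23 of the 36 bins, but its share of all bins was not counted, so nothing is read from that count. A direct count within treatments gave 1.15 times the WT level in the controls (95% counting interval 1.06 to 1.25) and 1.11 times with IL-2 (1.04 to 1.18).

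The IL-2 change of the intron deletion was the smallest of the 3 genotypes for each gene window, in a comparison added after the data were seen. In WT the Clec16a window with IL-2 was 1.5 times its control, in the upstream deletion 1.59 times and in the intron deletion 1.02 times. The IL-2 change of the intron deletion minus that of the other genotypes was log2 −0.60 (SE 0.10) for Clec16a, −0.36 (SE 0.07) for Rmi2 and −0.19 (SE 0.06) for Socs1. The edgeR interaction fit called 2 of these 3 windows lower, where 1.28% of all gene windows were, and DESeq2 0. Of all 3522 windows edgeR called 45 lower and 89 higher. Since the difference is made of the IL-2 changes that the locus was chosen from, nothing is read from these calls. For Rmi2 the IL-2 fold was 1.54 in WT, 1.17 in intron-deleted cells and 1.46 in upstream-deleted cells, and for Socs1 it was 1.31, 1.15 and 1.32. The residual spread of this fit has 1 degree of freedom, from the gap between WT and the upstream deletion, and the response of the intron deletion rests on its only control, which was also the shallowest library. The part of depth in the difference was not tested.

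Bins showed the same order. In 36 of 36 locus bins the ratio of IL-2 to control was lower in the intron deletion than in both other genotypes, which held for 40.4% of all 18580 bins. The median ratio over the locus was 1.45 in WT, 1.09 in intron-deleted cells and 1.54 in upstream-deleted cells. Over all bins the ratio ran from 0.692 to 1.49 in the intron deletion, 0.410 to 4.24 in WT and 0.420 to 4.53 in the upstream deletion. The narrow range of the intron deletion was thus not particular to the locus. EdgeR called 33 of the 36 bins lower, where 11.4% of all bins were, and DESeq2 10 of 36, where 1.85% were. Of all 18580 bins edgeR called 1870 higher and 2120 lower, and again nothing is read from these calls. The gap was wide at an inner Clec16a bin, chr16:10725001-10726000, with 959 scaled reads in the WT control and 2905 with IL-2, 1948 and 2462 in intron-deleted cells, and 989 and 3730 in upstream-deleted cells (difference of log2 changes −1.42, SE 0.09). At chr16:10640001-10641000, also inside Clec16a, the values were 1621 and 4654, 1858 and 2343, and 1426 and 4578 (−1.26, SE 0.09), so that here the control of the intron deletion was 1.15 times that of WT and its IL-2 library 0.503 times. At chr16:10842001-10843000 inside Rmi2 they were 799 and 2073, 1605 and 1895, and 959 and 2221 (−1.05, SE 0.10), where the control of the intron deletion was 2.01 times that of WT. Over the locus the intron deletion had the highest of the 3 controls in 23 of 36 bins and the lowest of the 3 IL-2 libraries in 23 of 36. By gene it had the highest control in 14 of 18 Clec16a bins, 7 of 8 Rmi2 bins and 2 of 10 Socs1 bins.

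**Figure D4:**
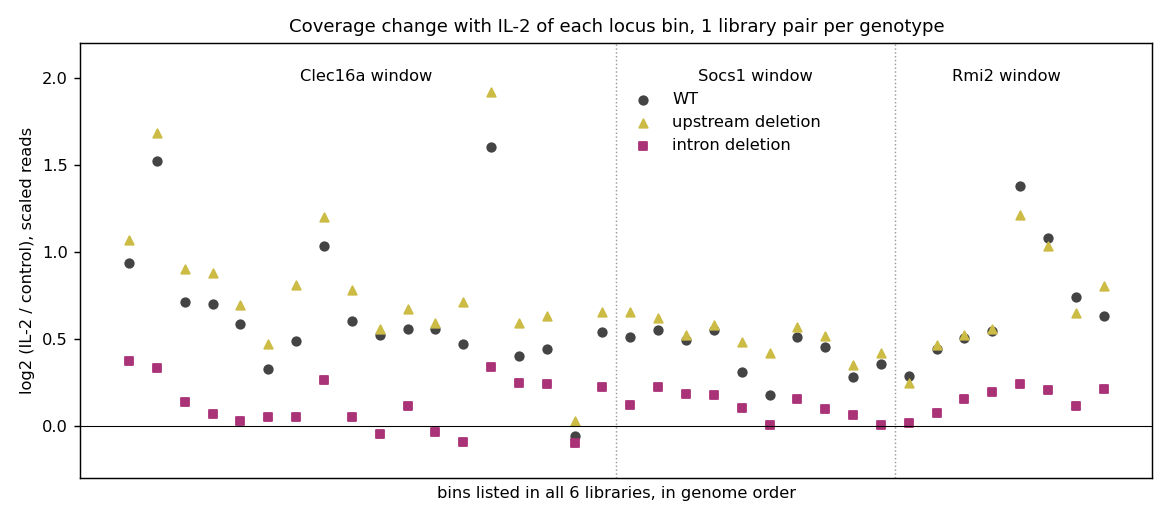
Log2 ratio of IL-2 to control coverage (vertical axis) for each of the 36 locus bins listed in all libraries, in genome order (horizontal axis), for WT (circles), the upstream deletion (triangles) and the intron deletion (squares). The squares lie below both other symbols in 36 of 36 bins.

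For single pairs edgeR called 0 of 107, where 0.0321% of all pairs were called lower, and DESeq2 0. At an unadjusted p under 0.05 there were 16 locus pairs, beside 2100 of all 28033. The median difference was log2 −0.31 over the locus pairs and 0.00 over all pairs. The response of the upstream deletion against the other genotypes was called for 0 of 107 pairs, 0 of 3 gene windows and 0 of 36 bins by edgeR (4, 0 and 1 at an unadjusted p under 0.05), as for 0% of all pairs, windows or bins, and DESeq2 called 0 in each.

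The number of listed partners of a bin, which also follows the depth of the library, differed along the locus. The bin past the lower end of Socs1, chr16:10782001-10783000, had 54 listed partners in the WT control and 103 with IL-2, 31 and 69 in intron-deleted cells, and 47 and 83 in upstream-deleted cells. The bin of the Socs1 start had 23 and 34, 8 and 18, and 9 and 18. Inside Clec16a, chr16:10639001-10640000 went from 12 to 61 partners in WT, 7 to 30 in intron-deleted cells and 9 to 50 in upstream-deleted cells. The bin past Rmi2, chr16:10844001-10845000, had 18 and 54 partners in WT, 27 and 45 in intron-deleted cells, and 19 and 36 in upstream-deleted cells. There the intron deletion control had more listed partners than the WT control although it listed fewer pairs in all.

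The strongest pairs that joined 2 members ran from Socs1 to the bin past Rmi2. The pair chr16:10784001-10785000 with chr16:10844001-10845000, 60 kb apart, had 51.4 scaled contacts in the WT control and 76.4 with IL-2, 88.1 and 85.3 in intron-deleted cells, and 41.5 and 71.2 in upstream-deleted cells. Its mean was at the 94.7 percentile of the 57 shared pairs of the same distance. Long contacts listed in all libraries ran from chr16:10639001-10640000 in Clec16a to Socs1. To chr16:10782001-10783000, 143 kb apart, there were 26.7 and 57.5 in WT, 45.4 and 49.5 in intron-deleted cells, and 29.5 and 56.5 in upstream-deleted cells. In WT and the upstream deletion the IL-2 library was well above its control, and in the intron deletion the 2 libraries differed by little. The strongest pairs of the Socs1 window stayed close to the gene: chr16:10772001-10773000 with chr16:10782001-10783000, 10 kb apart, had 97.2 and 112, 97.2 and 127, and 93.9 and 138, at the 96.6 percentile of 1367 pairs of that distance.

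Beside Socs1 a bin that was not listed in every library could not enter the tests. The bin chr16:10780001-10781000 had 1138 scaled reads in the WT control and 1375 with IL-2, 363 in intron-deleted cells with IL-2, and 696 and 980 in upstream-deleted cells, and was not listed in the intron deletion control. It was singled out after its values were seen. The tested bin 1 kb below it, chr16:10779001-10780000, had 1235 and 1813 in WT, 1641 and 1913 in intron-deleted cells, and 1325 and 2037 in upstream-deleted cells.

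Other genes of the pathways were read from gene windows in the same fit, where 9.45% of all windows were called higher and 8.35% lower in the intron deletion. Of 7 other SOCS family genes 3 were tested. Cish, another feedback inhibitor of STAT5 signals, fell in the intron deletion (log2 −0.32, edgeR adjusted p = 0.0475), was higher with IL-2 (0.52, adjusted p = 0.0193) and responded less to IL-2 in the intron deletion (−0.42, adjusted p = 0.0105). Socs3 and Socs4 passed no test. Their windows held 2 pairs each, shared in full with Pgs1 for Socs3 and with Gm35078, Mapk1ip1l and Wdhd1 for Socs4. Over all windows 2.33% were called higher and 1.22% lower with IL-2. In the interaction fit of the intron deletion 89 of all 3522 windows were called higher and 45 lower, and DESeq2 called 4 in either direction. The lists were chosen with earlier results of these data known. Their IL-2 and interaction calls are therefore a description, and nothing is read from them. Of 22 tested receptor, kinase and STAT genes 3 rose and 5 fell in the intron deletion. Il6st, the shared receptor chain of the IL-6 family, rose by 1.06, and the interferon receptor gene Ifnar1 by 0.53 and Jak1 by 0.33. Il12rb2 fell by 0.93, Il2rb, the IL-2 receptor beta chain, by 0.35, Stat6 by 0.34, Il7r by 0.34 and Ifnar2 by 0.26. With IL-2, Il7r, Il2rb and Il4ra were called higher and Jak2 lower. The windows of Jak2 and Il12rb2 held only 2 pairs each. The 2 tested partners of Rmi2, Top3a and Rmi1, passed no test in either genotype. The Top3a window held 4 pairs, shared in full with Smcr8. The Rmi1 window held 1 pair, shared with Hnrnpk and 2210016F16Rik. Of 6 tested CLEC16A partners and autophagy genes Map1lc3b rose in the intron deletion (0.59, edgeR adjusted p = 0.0141). With IL-2 the window of Becn1 was higher and that of Map1lc3b lower. The Becn1 window held 2 pairs, shared in full with Psme3, so its value cannot be assigned to 1 gene. The interaction calls of these lists went both ways. Beside Cish, Il7r was called lower (−0.48, edgeR adjusted p = 0.0163). Il6st (0.49, adjusted p = 0.0449) and Map1lc3b (0.61, adjusted p = 0.0392) were called higher. Of 14 neighbours of the locus 3 were tested, Tnp2, Prm3 and Prm2, and none was called between genotypes. The window of Tnp2 overlaps that of Socs1, and its IL-2 value of 0.33 is a description like that of Socs1. In the upstream deletion no gene of these lists was called.

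Of the 5 tested markers of other cells, Ikzf2, Cd79a, Klrb1c, Cd68 and Tyrobp, only Cd79a was called in the intron deletion against WT. Cd79a, a B cell marker, rose by log2 0.39 (edgeR adjusted p = 0.00239), and the B cell list summed to 2815 and 2712 scaled contacts in WT, 3463 and 3929 in intron-deleted cells, and 3089 and 2617 in upstream-deleted cells. Of the 9 tested CD8 T cell markers Cd8a rose by 0.56 and Cd8b1 by 0.44, and Gzmb, the gene of granzyme B, fell by 0.39. Over all gene windows 9.45% were called higher and 8.35% lower in the intron deletion. In the interaction fit Cd3e (0.34, edgeR adjusted p = 0.0344), Cd3d (0.38, adjusted p = 0.0182) and Cd3g (0.41, adjusted p = 0.0138) were called higher. Like those of the pathway lists, these interaction calls are a description. A pair with ends in more than 1 gene window counts in each. How many pairs the Cd3 windows share, or those of Cd8a and Cd8b1, was not counted, so their calls may not be separate. The part of these marker shifts in the Rmi2 result and in the IL-2 changes of the locus was not tested.

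Gene windows with the most similar profile were looked for among 2316 windows with a mean of at least 100 scaled contacts, over the 6 libraries, which share depth and treatment, and at least 1 Mb away. For Socs1 these were Arid5a (Pearson r 0.99), Fibp (0.99), Rasa2 (0.98), Actb (0.98) and Etf1 (0.98). For Clec16a they were Dnah2 (0.98), Tes (0.98), Hspa9 (0.97), Rasa2 (0.97) and Slc9a8 (0.97), and for Rmi2 Otulin (0.99), Hnrnpf (0.99), Grap2 (0.98), Bcl3 (0.98) and 4933440N22Rik (0.98). Among the members the r was 0.95 for Clec16a with Socs1, 0.73 for Rmi2 with Socs1 and 0.68 for Clec16a with Rmi2.

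The bins on either side of the window edges were as follows, in unscaled reads. The outermost listed bin at the lower edge of the Socs1 window, chr16:10778001-10779000, had between 1247 and 2318 reads per library, and the bin just outside, chr16:10777001-10778000, between 333 and 687. At its upper edge chr16:10790001-10791000 was listed in 3 libraries with 381 to 533 reads, and the next listed bin, chr16:10793001-10794000, had 290 to 1011 in all 6. At the lower edge of the Rmi2 window chr16:10830001-10831000 had between 1036 and 1770 reads, and the next listed bin outside, chr16:10828001-10829000, between 516 and 870 in 5 libraries. At its upper edge chr16:10846001-10847000 had between 832 and 1854, and the next listed bin, chr16:10857001-10858000, had 534 in the WT IL-2 library alone. The last Clec16a bin, chr16:10749001-10750000, was listed in 4 libraries and the next in 3.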

How the data were processed

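The 6 H3K27ac HiChIP libraries were analysed from the deposited tables, and the 19 ChIP-seq samples of the series were not analysed here. The submitters' processing notes name CASAVA, Bowtie2 2.2.6 and HiC-Pro and the mm10 build. The deposited tables give, for pairs of 1 kb bins, the contact count of the pair and a read count for each bin's coverage, neither normalised by the authors. Every listed pair had at least 20 contacts, lay at least 5 kb apart and joined bins flagged as peaks. Whether a further threshold was applied is unknown from these sources.

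Pairs, bins and gene windows present in all 6 libraries were tested with edgeR 4.0.16 (R 4.3.3) by its quasi-likelihood test after TMM scaling, in an additive model of genotype and treatment with Benjamini-Hochberg adjustment over all 28033 pairs, 3522 windows or 18580 bins at 0.05. Scaled values are counts scaled to the mean effective library size. Genes whose windows held the same pairs were tested as 1 window. Interaction terms tested the IL-2 response of 1 genotype, and those for windows and bins were added after seeing the data. The pair fit used a spread pooled over all pairs. The labels do not say whether libraries came from separate mice, so p-values measure a spread that may be technical.

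The members and lists were chosen with earlier results of these data known. Named pairs were the 8 largest per gene, the 5 largest that join 2 genes and every called pair; named bins were the gene starts and the 5 with the highest coverage per gene; bins named only because they were called were picked after their values were seen. Similar genes were the 5 windows per member with the highest Pearson r. Alternatives were DESeq2 1.42.0, other scalings, filters on low counts, pairs listed in at least 3 libraries, gene ends in place of windows, all listed pairs, 2 genotypes only and leaving out each library.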

Additional observations from a re-analysis of the deposited data

Results flagged for a closer look

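The IL-2 change of the intron deletion differed from that of the other genotypes in an interaction fit at 2 gene windows and at most locus bins. For the Clec16a window the difference of log2 changes was −0.60 and for the Rmi2 window it was −0.36. EdgeR called 33 of 36 bins lower, where 11.4% of all bins were. DESeq2 called neither window and 10 of the bins. The locus was chosen from IL-2 changes in these same libraries, so these calls are a description and support nothing.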

How the results depend on the processing

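The genotype term of the fits compared control and IL-2 within each genotype. No pairing of replicates was possible because each genotype and treatment has 1 library and the labels give no replicate numbers. The cause of the shifts below was not tested. Except for DESeq2 and for pairs listed in at least 3 libraries, the share of all features called was not counted for these settings. The locus counts of those settings therefore have no background beside them, and nothing about the locus is read from them. For pairs in the intron deletion against WT the count of 16 called became 32 with total scaling and 0 with DESeq2. It was 10 with a mean of at least 40 contacts. With pairs listed in at least 3 libraries it was 29, where 2455 of all 66781 such pairs were called higher and 2177 lower. For pairs in the upstream deletion it was 1 with total scaling, 1 with 2 genotypes, and 0 to 1 with a library left out. The median IL-2 change was 0.063 with total scaling and 0.30 to 0.41 with a library left out. Pairs that responded differently to IL-2 in the intron deletion numbered 2 with total scaling. Gene windows called in the intron deletion numbered 0 with all listed pairs and 1 to 2 with a library left out. There the Clec16a change was −0.30 with all listed pairs and −0.24 to 0.36 with a library left out, and that of Socs1 −0.021 with pairs in at least 3 libraries, −0.11 with all listed pairs and −0.055 to 0.14. In the upstream deletion 1 window was called with 2 genotypes and 0 to 1 with a library left out, and the Clec16a change was −0.031 to 0.31. Bins called in the intron deletion numbered 6 to 27 with a library left out. In the upstream deletion they numbered 2 with DESeq2, 23 with 2 genotypes and 0 to 23 with a library left out. Windows with another IL-2 response in the intron deletion numbered 0 with DESeq2, 1 with pairs in at least 3 libraries, 1 with gene ends and 0 with all listed pairs, in place of 2, and bins 10 with DESeq2, in place of 33. Interaction fits leave no residual degree of freedom once a library is left out and were not run that way. The median listed pair had 28 to 30 contacts per library.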
